A study of Mus musculus with 4 samples.

Results

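A set of 8 genes whose proteins sit in the basolateral membrane of epithelial cells was examined in small intestinal epithelium of mice labelled heterozygous or knockout for the adaptor AP-1B. They are the growth factor receptor genes Egfr, Erbb3 and Met, the integrin genes Itgb1, Itgb4 and Itga6, the immunoglobulin-family glycoprotein gene Bsg (basigin) and the sodium pump subunit gene Atp1b1. They were taken by name, as every probe set that the platform annotation assigns to one of them alone, which gave 26 probe sets of the 34945 named for 1 gene, and 8 genes of 18193. Of the 26, 21 passed a filter on low signal and were tested, and the other 5 are given by their values.

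The data were 4 one-colour Affymetrix arrays, 2 labelled AP-1B+/- (heterozygous) and 2 labelled AP-1B-/- (knockout), called heterozygous 1, heterozygous 2, knockout 1 and knockout 2 here. All were from healthy adult C57BL/6J mice of 10 weeks under specific pathogen-free (SPF) conditions. Wild-type mice were not analysed here, and the heterozygous arrays served as the control. Epithelial cells had been loosened from the dissected small intestine with EDTA and picked under a stereomicroscope. Nothing in the labels says which part of the gene was deleted, whether animals were pooled, or whether each array came from its own animal. A p-value here thus speaks for the spread of these arrays alone. The 2 arrays of each label had opposite sex patterns by Xist (values below), so they were not technical repeats of the same sample. Their spread includes any difference by sex. The number of arrays limits the precision, and an exact permutation test of 2 against 2 (two-sided) cannot go below p = 0.333.

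Enterocytes keep separate protein sets on the brush border facing the lumen and on the basolateral surface facing neighbours and basement membrane. AP-1B, the epithelial form of the clathrin adaptor AP-1, recognises sorting signals in the cytoplasmic tails of cargo proteins and directs them to the basolateral side, and Ap1m2 encodes its mu1B subunit. The receptors studied here read growth factors that reach the cell from below, the integrins hold it to laminin and other matrix proteins, and the sodium pump drives uptake of nutrients by keeping sodium low inside. An adaptor acts on the place of these proteins, and the arrays measured only the level of their transcripts.

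To check the labels, the targeted gene was read first. The only Ap1m2 probe set (1460190_at) gave 19.9 and 4.33 on the arrays labelled heterozygous and 2.49 and 22.3 on those labelled knockout, as multiples of the array median. Wherever 4 signals are listed in a row they are in label order, which is heterozygous 1 and 2, then knockout 1 and 2. In rising order of Ap1m2 the arrays were therefore knockout 1, heterozygous 2, heterozygous 1 and knockout 2, so that heterozygous 2 and knockout 2 had signals opposite to their labels. A probe set outside the deleted part would not check them. Directions between groups given here follow the labels, and the libraries labelled heterozygous 2 and knockout 2 are called by their labels throughout.

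The arrays also differed in ways that touch every gene. Each had a median near 1, but the 75th percentile was 4.13 and 4.27 on heterozygous 1 and knockout 2, and 5.54 and 5.57 on heterozygous 2 and knockout 1. Over the 22519 kept probe sets the median ratio of heterozygous 2 to heterozygous 1 was 1.35, and that of knockout 1 to knockout 2 was 1.28. A gene with a ratio of 1.35 between the heterozygous arrays thus differed no more than the typical probe set. Quantile normalization, which gives all arrays the same distribution of values, brought both median ratios to 1.02. Values are given as deposited, and beside them after this step where it matters. Xist, which is expressed in female cells, gave 0.349, 30.3, 0.070 and 60.1, so both arrays numbered 2 had the female pattern. The order of the arrays by Ap1m2 did not follow that division. Epithelial markers were bright on all 4 arrays, with Krt8, a keratin of simple epithelia, between 382 and 601.

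RefSeq promoter sequence (assembly GRCm38.p6) was at hand for Egfr, Met, Itgb1 and Atp1b1. The 250 bases before the start are shown for those whose window lies outside the gene. Itgb1 is one of the members that were higher on heterozygous 2 and knockout 1, Egfr had this order at 3 of its 6 kept probe sets but not at the brightest, and Atp1b1 was the member with the smallest spread in deposited values, though not after quantile normalization, where Bsg had the smallest. Sequences run 5′ to 3′ on the gene's strand, and capitals mark matches to GGGCGG (the GC box) or CCAAT, searched on both strands. Egfr lies at chr11:16751953-16752202 (plus strand), Itgb1 at chr8:128685404-128685653 (plus strand) and Atp1b1 at chr1:164458356-164458605 (minus strand).
Egfr: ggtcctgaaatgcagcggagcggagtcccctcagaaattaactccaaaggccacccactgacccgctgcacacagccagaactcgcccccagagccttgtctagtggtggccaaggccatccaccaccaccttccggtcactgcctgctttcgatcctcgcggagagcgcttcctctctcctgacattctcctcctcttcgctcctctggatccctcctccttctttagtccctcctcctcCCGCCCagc
Itgb1: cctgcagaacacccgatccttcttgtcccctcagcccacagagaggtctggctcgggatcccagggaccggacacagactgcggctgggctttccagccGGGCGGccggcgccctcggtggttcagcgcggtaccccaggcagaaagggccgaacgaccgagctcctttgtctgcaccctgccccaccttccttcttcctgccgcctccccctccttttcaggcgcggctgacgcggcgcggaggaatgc
Atp1b1: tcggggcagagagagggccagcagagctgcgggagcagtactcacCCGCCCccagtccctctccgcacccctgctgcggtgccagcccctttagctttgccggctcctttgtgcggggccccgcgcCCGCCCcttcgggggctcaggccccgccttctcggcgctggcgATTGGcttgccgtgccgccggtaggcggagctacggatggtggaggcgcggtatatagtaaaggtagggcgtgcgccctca
The Egfr and Itgb1 windows each held 1 GC box, and the Atp1b1 window held 2 and 1 CCAAT match. Among the windows of 27025 genes, 32.9% held a GC box and 34.5% a CCAAT match. None of the 3 held TATAAA on either strand, which 13% of the windows did. Only this exact string was searched, so variants of it were not counted. The G and C share was 60.8% for Egfr, 68% for Itgb1 and 70.4% for Atp1b1, against a median of 52%. The Met window, not shown because it overlaps the gene, held 3 GC boxes and had a G and C share of 74%. A link between these motifs and the signals was not tested.

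By label, none of the 8 genes had a difference between the groups that passed the test, which does not show that the levels were equal. Of the 21 kept probe sets, 9 were lower and 12 higher on the arrays labelled knockout, where 49.3% of all kept probe sets were lower, with a median log2 difference of 0.05 against 0.01 over all kept probe sets. By gene, with the brightest probe set of each, the direction was the other way, with 5 lower, 3 higher and a median of −0.04, against 0.0040 over all 11326 genes. By limma with Benjamini-Hochberg adjustment over all 22519 probe sets, 0 of the 21 passed, and 0 did at an unadjusted p under 0.05. Over all kept probe sets 0% passed, and 0.755% had an unadjusted p under 0.05. The adjusted p was 0.999907 for each of the 21, so it is not repeated. Differences below are log2 differences of (signal + 0.32), knockout minus heterozygous, each with the standard error (SE) from limma, and this scale understates differences of dim probe sets.

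**Figure D1:**
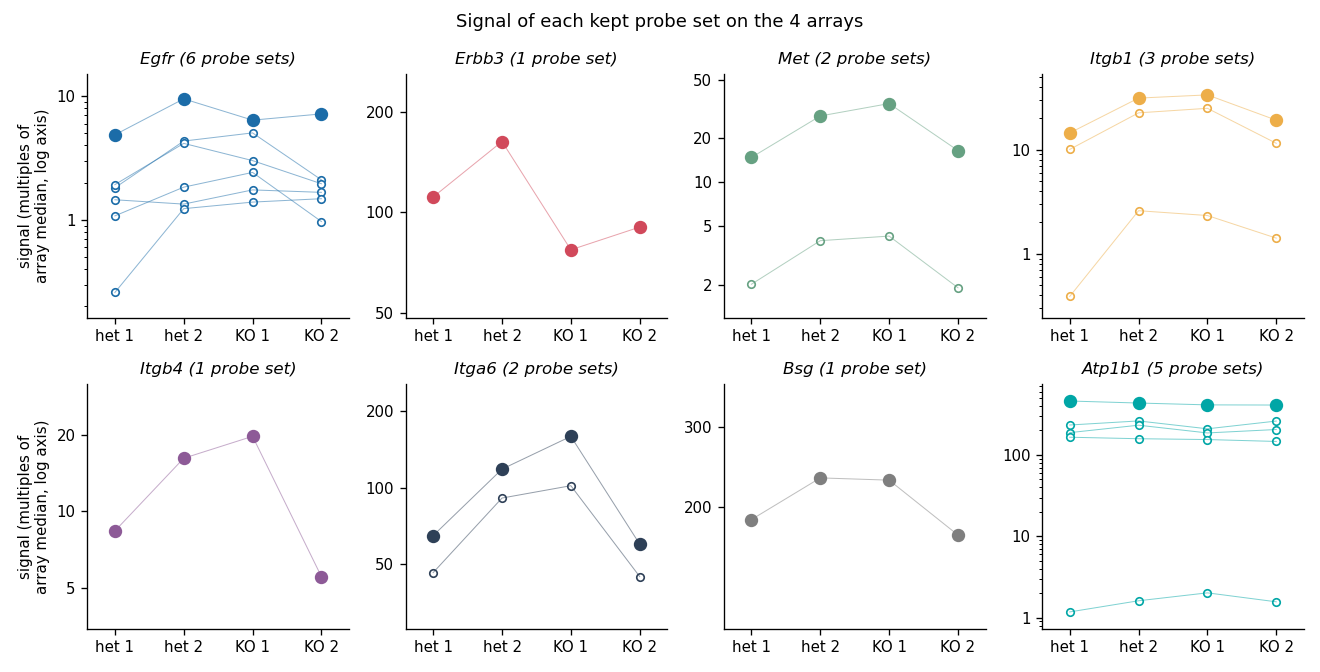
Deposited signal (multiples of the array median, log axis) of every kept probe set of the 8 genes on heterozygous (het) 1 and 2 and knockout (KO) 1 and 2. Filled points are the brightest probe set of each gene, open points the others, and lines join values of 1 probe set; Itga6, Itgb4, Met and Itgb1 are higher on het 2 and KO 1, and Atp1b1 is nearly level.

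Among the receptors, Erbb3 had the largest difference by label when genes are compared by their brightest probe sets. Its product binds neuregulins, has little kinase activity of its own and signals through partners such as Erbb2. The brightest Erbb3 probe set (1434606_at) had signals of 111 and 163 on heterozygous 1 and 2, and of 77.2 and 90.3 on knockout 1 and 2. Both arrays labelled knockout lay below both labelled heterozygous, with means of 83.8 ± 9.29 and 137 ± 36.8 (SD, n = 2 each). The difference was −0.69 (SE 0.48), and its unadjusted p by limma, a model fitted across all probe sets, was 0.176. Labelled groups were separated in this direction at 10.7% of kept probe sets. The second Erbb3 probe set (1452482_at), which did not pass the filter, had 0.820, 0.735, 0.093 and 0.125 in the same order, also lower on both arrays labelled knockout. Such values lie below the array median. In a fit without the filter its difference was −1.36 (SE 0.37), with an unadjusted p of 0.00677 and an adjusted p of 0.999984 by limma. With 1 array left out at a time, the difference of 1434606_at stayed below 0, as groups that do not overlap require, and ranged from −0.96 to −0.41.

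Egfr, the receptor for EGF, TGF-alpha and related ligands, was dim and its probe sets did not follow one pattern. The brightest (1460420_a_at) had 4.88 and 9.52 on heterozygous 1 and 2, and 6.40 and 7.19 on knockout 1 and 2. Its means of 7.20 ± 3.28 and 6.80 ± 0.558 (SD, n = 2 each) were close, and the difference was −0.01 (SE 0.51). Probe set 1424932_at had 1.82, 4.34, 5.05 and 2.11 in label order. It was higher on heterozygous 2 and knockout 1 than on the other arrays, as were 1435888_at (1.93, 4.16, 3.02 and 1.96) and 1451530_at (1.08, 1.84, 2.42 and 0.970). The groups by label overlapped at each of these. Probe set 1432647_at was nearly level, between 1.34 and 1.75, and 1454313_at had 0.259 on heterozygous 1 and between 1.23 and 1.48 on the others. Both arrays labelled knockout were above both labelled heterozygous at these last probe sets, by 0.24 (SE 0.43) and 0.89 (SE 0.54). Knockout arrays were separated upward at 6.56% of kept probe sets. The seventh probe set, 1457563_at, did not pass the filter and had values between 0.072 and 0.386. The mean of the 6 kept Egfr probe sets gave a difference of 0.20, opposite in sign to the brightest one.

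Met encodes the receptor for hepatocyte growth factor. Its brightest probe set (1434447_at) had signals of 14.7 and 28.3 on heterozygous 1 and 2, and of 34.3 and 16.4 on knockout 1 and 2. The second (1422990_at), dimmer, had 2.02, 3.99, 4.29 and 1.91 in the same order. Both were high on heterozygous 2 and knockout 1 and low on the other arrays, so the labelled groups overlapped. The means of 1434447_at were 21.5 ± 9.56 for heterozygous and 25.4 ± 12.7 for knockout (SD, n = 2 each), a difference of 0.22 (SE 0.61), and the difference of 1422990_at was 0.01 (SE 0.50). Within a label, heterozygous 2 had 1.92 times the 1434447_at signal of heterozygous 1, and knockout 1 had 2.09 times that of knockout 2.

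The integrin genes Itgb4 and Itga6 had the widest ratios between the arrays labelled knockout when genes are compared by their brightest probe sets. Itga6 and Itgb4 encode the subunits of alpha6beta4, the laminin receptor of hemidesmosomes, and Itgb1 encodes the beta chain that pairs with many alpha subunits, alpha6 among them. Itga6 was measured by 1422444_at, with 64.8, 118, 159 and 60.0 in label order, and by 1422445_at, with 46.4, 91.0, 102 and 44.8. Both probe sets put knockout 1 highest and knockout 2 lowest. The means of 1422444_at were 91.5 ± 37.8 and 109.5 ± 70.04 (SD, n = 2 each), heterozygous first, and its difference was 0.16 (SE 0.58). For 1422445_at the difference was 0.05 (SE 0.59).

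Itgb4 (1427387_a_at) had signals of 8.38 and 16.2 on heterozygous 1 and 2, and of 19.7 and 5.55 on knockout 1 and 2. Its order over the arrays was that of Itga6. Knockout 1 had 3.56 times the Itgb4 signal of knockout 2, the largest ratio between arrays of one label among the brightest probe sets of the 8 genes. The means were 12.3 ± 5.52 and 12.6 ± 10.03 (SD, n = 2 each), and the difference was −0.14 (SE 0.66), so means and log2 values differed in sign.

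Itgb1 had 3 kept probe sets of 6. The brightest (1452545_a_at) had 14.4, 31.1, 33.4 and 19.1, the next (1426918_at) 10.0, 22.5, 24.9 and 11.5, and 1427771_x_at 0.391, 2.59, 2.33 and 1.42, in label order. Each was lowest on heterozygous 1, and heterozygous 2 and knockout 1 lay above both other arrays. The differences by label were 0.25 (SE 0.61), 0.17 (SE 0.62) and 0.58 (SE 0.61) in that order. The 3 probe sets that did not pass the filter, 1426919_at, 1426920_x_at and 1438119_at, had values between 0.015 and 0.651. The last of them was lowest on knockout 1 (0.017), opposite to the brighter ones.

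Bsg and Atp1b1 were bright and steady by comparison. Bsg encodes basigin, which accompanies monocarboxylate transporters to the membrane. Its probe set (1456616_a_at) had 188, 232, 229 and 174 in label order, with means of 209.9 ± 31.0 and 202 ± 39.1 (SD, n = 2 each) and a difference of −0.06 (SE 0.41). The lowest and highest arrays differed 1.33-fold, which is less than the median ratio of 1.35 between the heterozygous arrays over all kept probe sets. After quantile normalization the values lay between 202 and 207.

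Atp1b1 encodes the beta1 subunit of the sodium pump, needed to bring the catalytic alpha subunit to the membrane. Its brightest probe set (1439036_a_at) had 461 and 435 on heterozygous 1 and 2, and 413 and 411 on knockout 1 and 2. The labelled groups did not overlap, but the difference was small, with means of 448 ± 18.1 and 412 ± 1.32 (SD, n = 2 each) and a log2 difference of −0.12 (SE 0.33). Probe set 1451152_a_at was also lower on both arrays labelled knockout (165, 158, 155 and 147; difference −0.10, SE 0.43). At 1418453_a_at (188, 232, 187 and 206) and 1423890_x_at (234, 262, 210 and 261) the labelled groups overlapped, with differences of −0.09 (SE 0.41) and −0.08 (SE 0.39). The dim 1455949_at, between 1.18 and 2.02, had a difference of 0.30 (SE 0.44). The highest and lowest arrays differed by 1.12-fold to 1.25-fold at the 4 bright probe sets. Quantile normalization widened this, since at 1439036_a_at the values became 464, 432, 326 and 486.

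**Figure D2:**
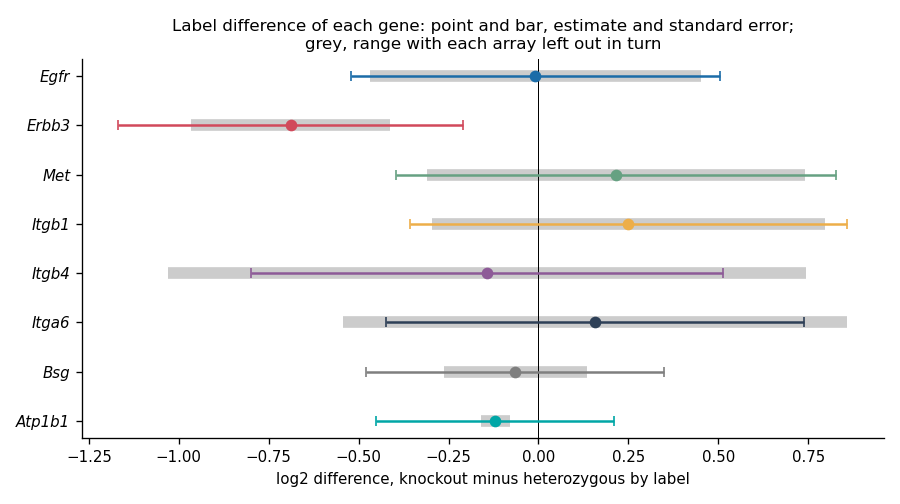
Log2 difference, knockout minus heterozygous by label, of the brightest probe set of each of the 8 genes (point) with its standard error from limma (bar); grey bands span the values found when single arrays were dropped. All bars but that of Erbb3 cross 0, and the bands of Erbb3 and Atp1b1 lie on 1 side of it, which follows from groups that do not overlap.

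By label, 5 of the 21 kept probe sets had groups that did not overlap, 3 of them lower (1 of Erbb3 and 2 of Atp1b1) and 2 higher (both of Egfr) on the arrays labelled knockout. Over all kept probe sets the share was 17.3%, so the members' count was near that of other probe sets. The pairs of equal number, which share no array and are each alike in sex pattern by Xist, gave opposite answers for most of the genes. Knockout 1 was above heterozygous 1 while knockout 2 was below heterozygous 2 at 14 of 21 probe sets and 6 of the 8 brightest, against 59.2% of all kept probe sets. After quantile normalization it was 11 of 21 and 4 of the 8 brightest, against 34.9%. For Itga6, as deposited, knockout 1 minus heterozygous 1 was 1.29 and knockout 2 minus heterozygous 2 was −0.98 on the log2 scale. For Itgb4 these values were 1.20 and −1.49, for Met 1.20 and −0.77, and for Itgb1 1.19 and −0.69. For Egfr they were 0.37 and −0.39, and for Bsg 0.29 and −0.41. Erbb3 (−0.53 and −0.85) and Atp1b1 (−0.16 and −0.08) were lower in both pairs. Single arrays stand behind each of these values, so they have no test.

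Set in the order of the Ap1m2 signal, the arrays with the lowest Ap1m2, knockout 1 and heterozygous 2, had the highest signals of Met, Itgb1, Itgb4, Itga6 and Bsg. At 13 of the 21 kept probe sets heterozygous 2 and knockout 1 both lay above heterozygous 1 and knockout 2, and at 0 both lay below. Such an order was common on these arrays, with 52.7% of all kept probe sets above and 11.7% below. After quantile normalization 11 of 21 lay above, against 28.3% of all kept probe sets, and 3 lay below, against 25%. The 11 were 3 probe sets of Egfr, both of Met, 3 of Itgb1, both of Itga6 and that of Itgb4, and the 3 were of Atp1b1. Probe sets of a gene are not independent, and by gene it was 4 of 8 (Met, Itgb1, Itgb4 and Itga6) against 27.7% of 11326 genes, each taken by its brightest probe set. Arrays were not regrouped, averaged or tested by Ap1m2, which is a measured signal.

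**Figure D3:**
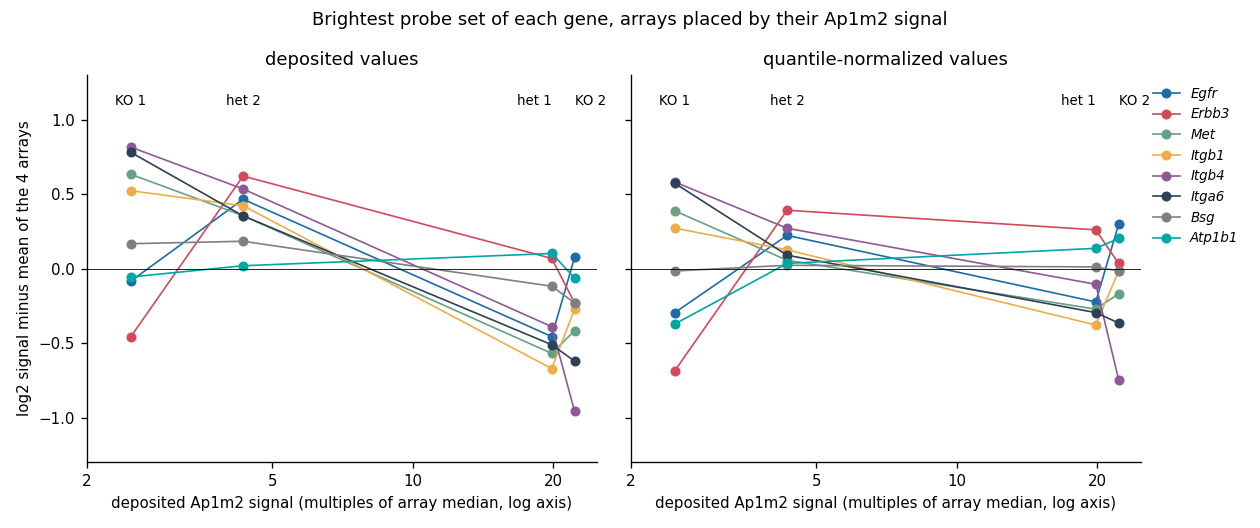
Log2 signal of the brightest probe set of each of the 8 genes minus its own mean over the 4 arrays, against the deposited Ap1m2 signal of the array (log axis), as deposited (left) and after quantile normalization (right). Met, Itgb1, Itgb4 and Itga6 are above their means on KO 1 and het 2 in both panels, while Bsg becomes level and Atp1b1 lower on KO 1 after normalization.

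The size of these array differences depended on the scaling. As deposited, heterozygous 2 over heterozygous 1 and knockout 1 over knockout 2 were both at least 1.5-fold at 11 of 21 kept probe sets, against 22.2% of all, and at 4 of the 8 brightest. After quantile normalization this held for 4 of 21, against 7.34%, and for 0 of the 8 brightest. For Itga6 (1422444_at) the normalized signals were 76.3, 99.7, 139 and 72.7 in label order, so that knockout 1 stood 1.92 times above knockout 2 and heterozygous 2 stood 1.31 times above heterozygous 1. For Itgb4 the normalized signals were 10.2, 13.3, 16.5 and 6.40. For Met (1434447_at) they were 18.2, 22.9, 28.9 and 19.5. For Itgb1 (1452545_a_at) they were 17.8, 25.3, 28.0 and 22.9. The order of the arrays for these 4 genes thus held with smaller ratios. For Erbb3 they were 127, 139, 65.7 and 108, with knockout 1 lowest.

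**Figure D4:**
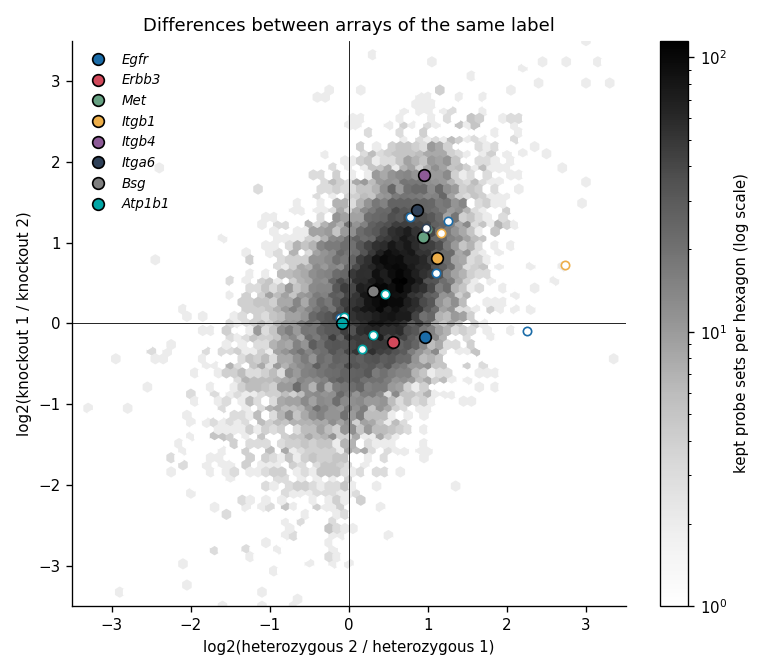
Log2 ratio of knockout 1 to knockout 2 against log2 ratio of heterozygous 2 to heterozygous 1, on deposited signals, for all kept probe sets within 3.5 of 0 (grey, number per hexagon on a log scale) and the 21 kept probe sets of the 8 genes (filled, brightest; open, others). Itga6, Itgb4, Met and Itgb1 lie at the upper right, where much of the grey cloud also lies, Atp1b1 lies near 0, and Erbb3 and the brightest Egfr probe set lie to the right and below 0.

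Among the 8 genes, Met and Itgb1 had the most similar profiles. Likeness was measured as the root mean square distance between log2 deposited signals, each centred on its own mean over the 4 arrays. A small number means a similar profile. These distances include the shift between arrays described above and were not computed after quantile normalization. Met and Itgb1 were 0.109 apart, Met and Itga6 0.129, Bsg and Atp1b1 0.196 and Itgb4 and Itga6 0.201. Erbb3 was farthest from Itgb4, at 0.769. With 4 arrays many of the 11326 genes lie close by. The nearest to Met were Jpt2 and Mrpl18 (0.0112 and 0.0147), to Itgb1 Cops8 and Fam83h (0.0116 and 0.016), and to Itga6 Ube2d3 and Eif5b (0.0237 and 0.0263). To Itgb4 the nearest were R3hcc1l and Pgm2l1 (0.0247 and 0.0301), to Bsg Mgat2 and Prorsd1 (0.0161 and 0.0167), and to Atp1b1 Aptx and Map3k3 (0.00872 and 0.015). The 2 genes nearest to Egfr were 2010320M18Rik and Pcbp4 (0.0226 and 0.0341), and to Erbb3 9130016M20Rik and 2010308F09Rik (0.0344 and 0.0508). Median distances to all genes ran from 0.286 for Bsg to 0.572 for Itgb4.

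Partners of the 8 genes were described from 10 lists with 111 genes, of which 76 had a kept probe set. By label 43 were lower and 33 higher, 0 passed by limma, and 0 had an unadjusted p under 0.05. Over all 11326 genes 5600 were lower and 5726 higher. Of the 76, 5 had labelled groups that did not overlap, against 17.3% of kept probe sets. After quantile normalization heterozygous 2 and knockout 1 both lay above the other arrays at 34 of the 76, or 44.7%, against 27.7% of all genes. Both lay below at 15, against 24.9% of all genes. By list, above was 4 of 6 for ErbB ligands, 1 of 4 for other receptors and 2 of 5 for Met and Ron ligands and proteases. It was 4 of 7 for other integrin subunits and 4 of 8 for integrin-linked proteins. For pump subunits it was 2 of 4, and for monocarboxylate transporters 1 of 4. The other lists are given below.

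Ligands of the ErbB receptors had 6 kept genes of 11, 4 lower and 2 higher by label (median difference −0.05). Heparin-binding EGF, Hbegf, had 9.06, 15.6, 24.5 and 8.62 in label order, and Tgfa had 8.87, 14.3, 15.5 and 8.90. Both were higher on heterozygous 2 and knockout 1. Of other receptors, 2 of 4 kept genes (of 6 listed) were lower and 2 higher (median 0.02). Erbb2, the partner of Erbb3, had 13.7, 28.7, 16.1 and 18.3, and the insulin receptor gene Insr had 11.7, 16.0, 5.35 and 10.9. Insr had both arrays labelled knockout below both labelled heterozygous, with a difference of −0.81 (SE 0.56). Of the ligands and proteases of Met and its relative Ron, 5 of 7 were kept, 3 lower and 2 higher (median −0.04). The protease inhibitor genes Spint1 (84.0, 160.1, 126 and 86.7) and Spint2 (210.0, 245, 294 and 217) were the brightest of these.

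All 16 adaptors and inhibitors of receptor signalling were kept, 7 lower and 9 higher by label (median 0.03). Errfi1, a feedback inhibitor of Egfr, had 30.8, 58.7, 61.7 and 23.4, and Dusp6, an ERK phosphatase, had 21.7, 30.7, 23.6 and 25.5 on the arrays in the same order. Errfi1 thus had the array order of Itgb4, and Dusp6 did not. After quantile normalization 6 of the 16 genes lay above on both heterozygous 2 and knockout 1, against 27.7% of all genes. Of the 16, 3 lay below, against 24.9%.

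Among other integrin subunits 7 of 12 were kept, 4 lower and 3 higher (median −0.32). Itga3, an alpha subunit for laminin binding, had 31.6, 46.9, 34.0 and 28.0, and Itgav had 22.8, 54.1, 43.3 and 29.9 in label order. Each was highest on heterozygous 2. Hemidesmosome and laminin genes had 7 of 13 kept, 6 lower and 1 higher (median −0.13). Plectin, Plec, which links alpha6beta4 to keratin, had 47.0, 97.6, 112 and 36.7, the order of Itga6 and Itgb4. The tetraspanin gene Cd151, whose product binds laminin-binding integrins, had 43.4, 88.2, 69.2 and 47.8. After quantile normalization 5 of the 7 hemidesmosome and laminin genes lay above on both heterozygous 2 and knockout 1, against 27.7% of all genes. Of these 7, 1 lay below, against 24.9%. The integrin-linked cytoplasmic proteins had 8 of 10 kept, 2 lower and 6 higher (median 0.16). Vinculin, Vcl, had 23.0, 40.7, 41.6 and 16.3, and talin, Tln1, had 13.0, 19.5, 16.2 and 12.7. Vcl was highest on knockout 1 and Tln1 on heterozygous 2.

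Sodium pump subunits and FXYD regulators had 4 of 13 kept, 2 lower and 2 higher (median 0.05), and the catalytic alpha1 gene was not analysed here. Atp1b3, another beta subunit, had 8.98, 20.0, 27.6 and 10.8, and Fxyd3, a small regulator of the pump, had 12.6, 27.7, 32.5 and 10.1. These were high on heterozygous 2 and knockout 1, unlike Atp1b1. Of monocarboxylate transporters and basigin relatives 4 of 6 were kept, 2 lower and 2 higher (median −0.07). Slc16a1, the lactate and butyrate transporter MCT1 that travels with basigin, had 39.0, 92.2, 80.7 and 50.8, and the basigin relative Nptn had 66.8, 96.7, 81.2 and 56.6. Slc16a1 varied 2.36-fold between its lowest and highest array, against 1.33-fold for Bsg.

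Of other basolateral membrane proteins 15 of 17 were kept, 11 lower and 4 higher (median −0.22). The iron exporter gene Slc40a1 had 318, 340.0, 248 and 339, and the immunoglobulin receptor gene Pigr had 495, 382, 296 and 418. Both were lowest on knockout 1. Cxadr, a junctional adhesion protein sorted by AP-1B, had 15.4, 33.0, 31.0 and 13.8. The transferrin receptor gene Tfrc, another AP-1B cargo, had 20.9, 107, 163 and 35.5. Cxadr and Tfrc had heterozygous 2 and knockout 1 above the other arrays, as Met and the integrins did. The low density lipoprotein receptor gene was not analysed here. After quantile normalization 5 of the 15 lay above on both heterozygous 2 and knockout 1, against 27.7% of all genes. Of the 15, 7 lay below, against 24.9%.

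Markers of cell types also varied between the arrays. In RNA from many cells together, fewer cells of a type and less RNA per cell cannot be told apart. Crypt proliferation genes (11 of 12 kept) had summed signals of 158 and 255 on heterozygous 1 and 2, and of 475 and 167 on knockout 1 and 2. Villus enterocyte genes (11 of 12) summed to 4076 and 3574, and to 3197 and 3414, and in these sums the brightest genes weigh most. Their spread ran from 312, 82.3, 3.97 and 237 for Lct to 588, 539, 590 and 485 for Alpi in label order. By label all 11 crypt genes were higher and all 11 villus genes lower, against 5726 higher and 5600 lower of 11326 genes. Labelled groups overlapped at most of them. They were separated at 2 of the 11 crypt genes and 1 of the 11 villus genes, against 17.3% of kept probe sets. After quantile normalization 7 villus genes were below the other arrays on both heterozygous 2 and knockout 1, against 24.9% of genes. At 1 villus gene both were above, against 27.7%. T cell genes (11 of 14) summed to 508 and 104, and to 14.6 and 316, and myeloid genes (10 of 11) to 231 and 154, and to 105 and 154. All 11 T cell genes were lower on both heterozygous 2 and knockout 1 than on the other arrays, against 11.7% of all kept probe sets. Their order was thus opposite to that of Met, Itgb1, Itgb4 and Itga6. The T cell gene Gzma had 244, 53.8, 5.79 and 149, and Ccl5 had 93.2, 13.3, 2.01 and 61.8. B and plasma cell genes (8 of 9) summed to 631 and 252, and to 281 and 253. Stroma and smooth muscle genes (9 of 12) summed to between 19.8 and 29.8, and endothelial genes (4 of 8) to between 3.89 and 6.31. Acta2, of smooth muscle, had 5.91, 6.39, 9.66 and 10.1 in label order. At 4 of the 9 stroma and smooth muscle genes both arrays labelled knockout lay above both labelled heterozygous, and at 0 below. The upward share was 6.56% over all kept probe sets. By limma 2 of the 9 had an unadjusted p under 0.05, and 0 passed after adjustment. The lowest deposited value on any array was 0.002, so a marker signal above 0 does not show that its cell type was present. The 8 epithelial genes summed to 1714 and 2312, and to 2697 and 1554. As deposited, epithelial and crypt sums were thus highest on heterozygous 2 and knockout 1, the arrays with the highest Met, Itgb1, Itgb4 and Itga6. After quantile normalization the epithelial sums were 1848, 2189, 2260 and 1855 in label order, but the list was mixed. Heterozygous 2 and knockout 1 both lay above the other arrays at 5 of the 8 genes, against 27.7% of genes. They both lay below at 2, against 24.9%. Krt19 had 224, 364, 462 and 227 after this step, and Vil1 had 324, 304, 224 and 318. The crypt sums became 190, 213, 406 and 199, so heterozygous 2 stood little above heterozygous 1 and knockout 2. The part of these cell types in the signals of the 8 genes was not tested.

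**Figure D5:**
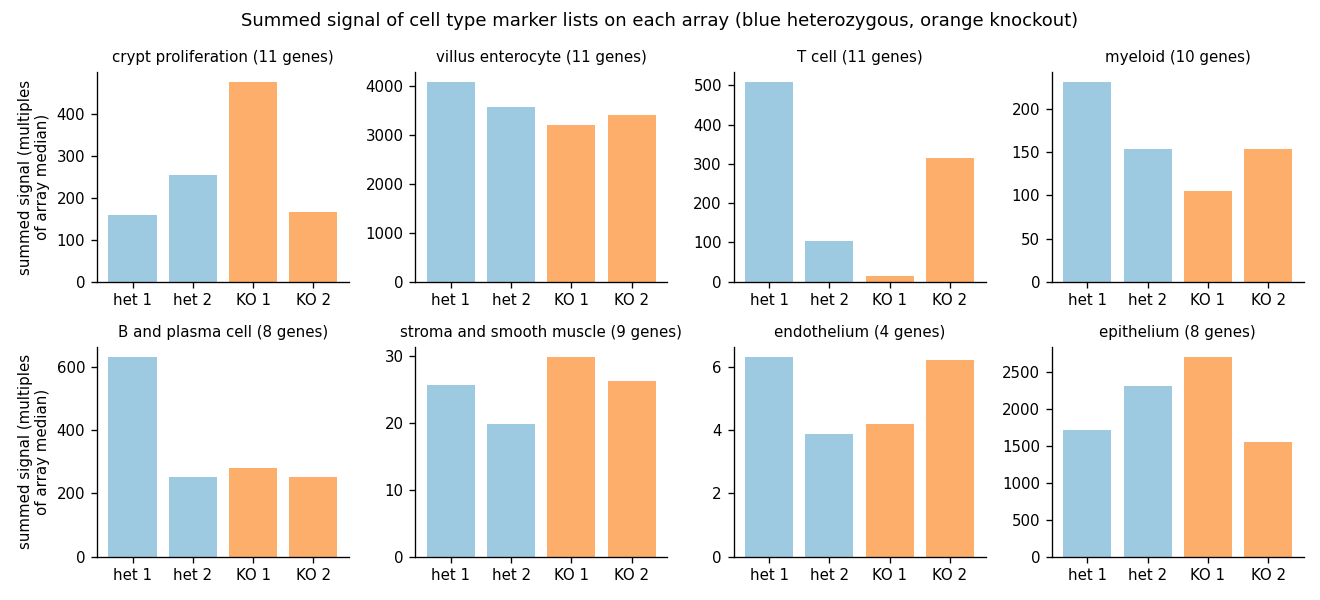
Summed deposited signal (multiples of the array median, axis from 0) of the kept genes of 8 marker lists on heterozygous (het) 1 and 2 (blue) and knockout (KO) 1 and 2 (orange). Crypt proliferation and epithelial sums are highest on KO 1 and next on het 2, and T cell sums are lowest on these arrays.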

How the data were processed

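Per the submitters' processing notes, the authors made the intensity values with MAS5, version not given in the sources used here. Deposited array medians lay between 0.996 and 0.998, a rescaling that the labels do not describe. Detection calls, scanner files and scan dates were not used here. Names came from the platform annotation, which gave 1 gene for 34945 of 45037 probe sets; the Entrez identifiers of 34741 of them were found in RefSeq (GRCm38.p6), with 0 symbols to update.

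Signals were taken as log2(value + 0.32), the pseudocount being the 25th percentile of all values. Probe sets with a mean over the 4 arrays of at least 0.983, the median of such means, were kept. Groups by label were tested in R 4.3.3 with limma 3.58.1 (lmFit, eBayes with an intensity trend), Benjamini-Hochberg adjusted at 0.05. The fit was also run on simulated independent arrays to check the sign and size of differences put in. Those arrays lacked the differences between whole arrays seen here, so that run does not bear on the calls. For statements by gene, the brightest kept probe set was used. Replicate numbers 1 and 2 occur in both groups, and same-numbered arrays shared the sex pattern of Xist. Deviations of same-numbered arrays correlated at −0.51, and the main fit did not take the numbers as pairs. Named genes were all members, Ap1m2, the 2 brightest genes of each list, some partners set by name and the 2 nearest profiles. The members and lists were chosen with earlier results of these data known. Alternatives covered pseudocount, filter, scaling, trend, replicate block, each array left out, threshold and probe set choice; crossed pairs, single pairs and quantile normalization with an array left out were added after seeing the data.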

Additional observations from a re-analysis of the deposited data

How the results depend on the processing

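By limma, 0 member probe sets passed after adjustment in any setting tried, and up to 2 of 21 had an unadjusted p under 0.05. Without the filter, 1 of 26 did, the dim Erbb3 probe set 1452482_at. Over all kept probe sets the count of calls was 0 with other pseudocounts, no filter, quantile normalization, median centring, no trend, the replicate block, the crossed pairs as a block or a threshold of 0.10. It was 1 (of 11260) with the stricter filter and 0 to 240 with 1 array left out, 24 without knockout 1 and 240 without knockout 2, but 0 with 1 array left out after quantile normalization. The replicate block left every difference as it was and gave 0 calls.

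Egfr turned sign with quantile normalization (0.0016) and with the mean of its probe sets (0.20). The other 7 genes kept their sign in settings with all arrays. The filters, the trend and the replicate block leave the difference of a probe set unchanged, so these settings could not turn a sign. Nor could the mean of probe sets for Erbb3, Itgb4 and Bsg, which had 1 kept probe set each. With 1 array left out, differences ran from −0.47 to 0.45 for Egfr, −0.96 to −0.41 for Erbb3, −0.31 to 0.74 for Met, −0.30 to 0.80 for Itgb1, −1.03 to 0.74 for Itgb4, −0.54 to 0.86 for Itga6, −0.26 to 0.13 for Bsg and −0.16 to −0.08 for Atp1b1. Signs turned without heterozygous 1 or knockout 1 for Met, Itgb1 and Itga6, without heterozygous 2 or knockout 2 for Itgb4 and Bsg, and without heterozygous 2 or knockout 1 for Egfr. Single pairs (number 1, then 2) gave 0.37 and −0.39 for Egfr, −0.53 and −0.85 for Erbb3, 1.20 and −0.77 for Met, 1.19 and −0.69 for Itgb1, 1.20 and −1.49 for Itgb4, 1.29 and −0.98 for Itga6, 0.29 and −0.41 for Bsg, and −0.16 and −0.08 for Atp1b1. With 1 array left out, medians of partner lists ran most widely for hemidesmosome and laminin genes (−0.88 to 0.57), and from −0.57 to 0.30 for other integrin subunits. They moved by more than the SD of the list's own level between arrays of a label for other receptors (−0.61 to 0.55), adaptors and inhibitors (−0.32 to 0.37) and pump subunits (−0.26 to 0.42), and by less than that SD for the other 7 lists. The cause was not tested.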

Other observations

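Among the 76 kept partner genes, those with the widest spread over the arrays were looked up after their values were seen. Lama3, a laminin chain of the ligand of alpha6beta4, had 2.49, 9.88, 23.1 and 2.24 in label order (heterozygous 1 and 2, then knockout 1 and 2). The laminin chain gene Lamc1 had 1.29, 2.53, 3.67 and 0.584, and the integrin gene Itga2 had 1.41, 2.05, 2.89 and 0.476. All 3 were highest on knockout 1 and lowest on knockout 2, the order of Itga6 and Itgb4. Kcnn4, a basolateral potassium channel gene, had 9.33, 25.5, 64.0 and 12.3, and talin 2, Tln2, had 1.04, 2.51, 4.44 and 0.968. Slc51b, a subunit of the basolateral bile acid exporter, ran the other way, with 27.1, 12.9, 5.40 and 31.5, and so did the sodium pump regulator gene Fxyd5, with 4.07, 2.07, 0.816 and 2.97. Genes of the same membrane thus had opposite orders over these arrays.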
